A study of Mus musculus with 16 samples.

Results

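The endoplasmic reticulum (ER) folding and secretory stress genes described here are 44 mouse genes that fold newly made secretory proteins, carry them into the ER, and dispose of those that misfold. They were taken by symbol from a table of read counts per gene in whole pancreas. All 44 symbols were among its 24411 rows, and all 44 passed a filter on low counts, which kept 13660 genes. They were ordered by role into 13 chaperones and co-chaperones, 7 disulfide isomerases, 12 genes of the translocon and signal peptidase, 9 genes of ER-associated degradation, and 3 stress sensors.

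Polyadenylated RNA was sequenced from the pancreas of 16 male C57BL6/J mice, 1 library per mouse, at 12 weeks of age. Lean wild-type animals (WT, n = 5) and obese Lep(ob/ob) animals (n = 7) drank control water for 6 weeks, and a further set of Lep(ob/ob) animals (CCKRi, n = 4) drank water with an antagonist of the cholecystokinin (CCK) receptors for the same 6 weeks, either proglumide at 0.1 mg/mL (mice 69 and 72) or lorglumide at 0.05 mg/mL (mice 74 and 76). Every CCKRi mouse therefore also lacked leptin, the satiety hormone of fat tissue, from birth and in every cell, and no lean mouse was given an antagonist. WT mice weighed 27.7 ± 3.22 g at the end (SD, n = 5). The weight of untreated obese mice was 51.0 ± 1.98 g (SD, n = 7), and that of CCKRi mice 54.8 ± 2.22 g (SD, n = 4). The sources differ on where the animals came from. In the labels the WT mice were bred in house from purchased stock and the Lep(ob/ob) mice were bought, whereas the study's methods describe both as bought, so a difference in origin between the genotypes may or may not be present. The labels also give each library 1 of 2 batches. Batch A held WT mice 5489, 5492 and 5494 and Lep(ob/ob) mice 441, 472, 417 and 447, and batch B held WT mice 58 and 59, Lep(ob/ob) mice 461, 463 and 464, and all CCKRi mice.

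Pancreatic acinar cells secrete more protein for their size than almost any other cell, and their ER is correspondingly large and rich in folding factors. Nascent enzymes enter through the Sec61 channel, lose their signal peptide, and are folded by the chaperone BiP and its partners and by disulfide isomerases, while misfolded proteins are exported and degraded. When unfolded protein accumulates, the sensors IRE1, ATF6 and PERK start the unfolded protein response, which induces many of these same genes. Islet beta cells rely on the same machinery to make insulin.

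Libraries held 19.2 to 34.5 M counts (batch A) or 9.87 to 15.9 M counts (batch B), and the 44 genes took 0.814% to 1.04% (batch A) and 1.04% to 1.21% (batch B) of them in WT, 0.778% to 0.841% and 0.894% to 0.992% in the untreated obese mice, and 1.05% to 1.25% in CCKRi mice. The 50 most counted genes made up 79.2% to 85.0% of a batch A library and 49.3% to 77.1% of a batch B library. All 13 acinar markers were measured in the tissue, with a summed level of 108640 to 825010 CPM (counts per 1 M of a library total multiplied by its TMM factor, which corrects for composition), and none of the markers checked for 8 cell types was at 0 in every mouse. The TMM factor, edgeR's correction for a few genes taking many counts, ran from 0.558 (WT 5489) to 2.16 (CCKRi 69), so a summed CPM is not a share of the counts. As shares, the acinar markers took 23.4% to 48.2% of the counts. The islet markers summed to 1357 to 1990 CPM in WT, 2736 to 13869 CPM in Lep(ob/ob) and 1628 to 15575 CPM in CCKRi mice, and 9 of 12 were higher in the obese untreated mice than in lean mice, while 2 of the 13 acinar markers were lower. Of the 6 duct markers 1 was higher and 1 lower, and of the 7 adipocyte markers 1 was lower. No macrophage, lymphocyte, plasma cell or endothelial marker passed the test. Over all genes 5.93% were higher and 3.14% lower in this comparison. No marker of the 8 lists passed the same test between CCKRi and Lep(ob/ob) mice. The transcript of the mutated *Lep* gene was at 0.986 to 3.68 CPM in WT, 14.2 to 477 CPM in Lep(ob/ob) and 52.8 to 502 CPM in CCKRi mice. Some libraries stood apart in the ER genes. WT 5489 had the highest level of all 16 mice for 32 of the 44 genes, CCKRi 69 had the lowest level for 32, and Lep(ob/ob) 463 had the lowest for 8. These ranks hold for TMM-scaled levels. As a share of its counts the module was at 1.04% in WT 5489, at 1.05% in CCKRi 69 and at 0.916% in Lep(ob/ob) 463, so CCKRi 69 was above every untreated Lep(ob/ob) mouse. Markers of other tissue were also high in some of these libraries. The mean log2 CPM of the adipocyte markers was 6.47 in Lep(ob/ob) 463 and 5.85 in CCKRi 69, and 4.87 and 4.86 in Lep(ob/ob) 417 and 461, against 2.27 to 4.18 in the other mice, and that of the macrophage markers was 4.81 to 6.21 in these 4 mice against 2.99 to 4.21 in the others. Their part in the results was not tested beyond fits without these mice.

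Of the 44 genes, 35 had a promoter entry in the RefSeq table of assembly GRCm38.p6, which spans 250 bases before to 50 bases after a transcription start. *Sil1*, *Atf6*, *Sec61a1*, *Hyou1*, *Derl1*, *Spcs3*, *Ssr2*, *Erp29* and *Manf* had none. Each window was searched on both strands for 3 elements of the unfolded protein response. The ER stress response element (ERSE), known to be bound by ATF6 beside the CCAAT-binding factor NF-Y, has the letters CCAAT followed, after 9 bases of any kind, by CCACG. It was matched in 9 of the 35 genes, and in 37 of all 27025 genes with an entry (0.137%). The sites are shown because their letters were held by a larger share of these promoters than of all promoters. Each line below reads 5′ to 3′ on the strand of the match, with the matched letters in capitals and 10 bases on either side.
*Hspa5* (chr2:34772025-34772043, plus strand): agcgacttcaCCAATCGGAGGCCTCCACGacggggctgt
*Hsp90b1*, distal (chr10:86705638-86705656, minus strand): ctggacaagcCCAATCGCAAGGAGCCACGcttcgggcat
*Hsp90b1*, proximal (chr10:86705533-86705551, plus strand): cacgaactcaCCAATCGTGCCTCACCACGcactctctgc
*Calr* (chr8:84847075-84847093, plus strand): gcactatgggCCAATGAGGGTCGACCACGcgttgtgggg
*Canx* (chr11:50325800-50325818, minus strand): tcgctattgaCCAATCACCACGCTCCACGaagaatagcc
*Dnajc3* (chr14:118937827-118937845, plus strand): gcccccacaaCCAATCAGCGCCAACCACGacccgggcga
*Creld2* (chr15:88819520-88819538, minus strand): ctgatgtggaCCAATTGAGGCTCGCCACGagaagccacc
*Pdia6* (chr12:17266491-17266509, plus strand): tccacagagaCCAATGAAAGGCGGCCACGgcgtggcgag
*Syvn1* (chr19:6046532-6046550, plus strand): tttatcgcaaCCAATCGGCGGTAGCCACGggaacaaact
*Derl3* (chr10:75893242-75893260, minus strand): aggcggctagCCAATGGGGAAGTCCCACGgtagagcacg

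The related element ERSE-II, the letters ATTGG and CCACG with 1 base between them, was matched in *Dnajb11* and *Herpud1* and in 12 of the 27025 genes (0.0444%). Its sites are shown in the same way.
*Dnajb11* (chr16:22857852-22857862, plus strand): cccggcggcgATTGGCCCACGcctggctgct
*Herpud1* (chr8:94386377-94386387, plus strand): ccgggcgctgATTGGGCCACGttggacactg

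The third element, the unfolded protein response element TGACGTGG bound by XBP1, was found in 0 of the 35 windows and in 0.714% of all genes. A match is a string of letters and not a measured binding site, and the absence of a match says only that these letters are not in this window.

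**Figure D1:**
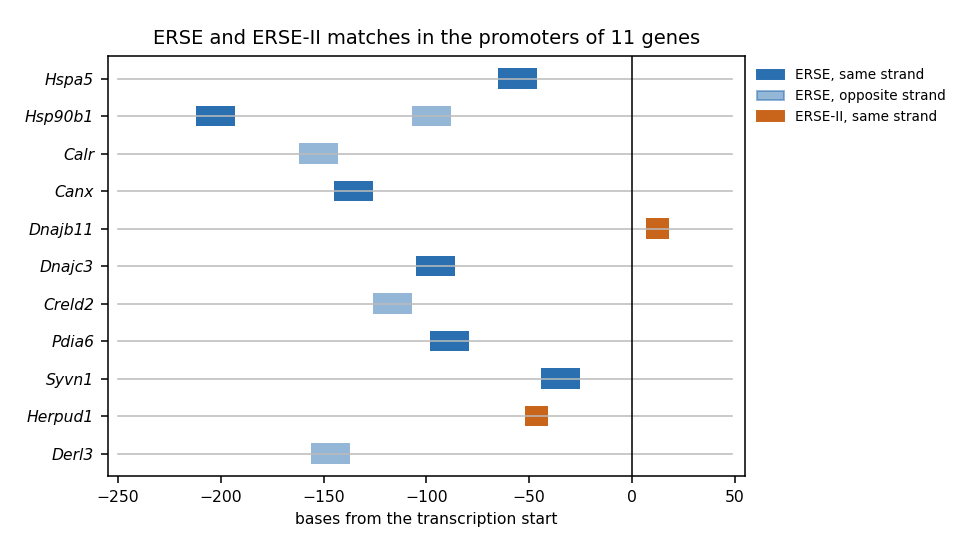
Position of each ERSE (blue) and ERSE-II (orange) match in the 300-base promoter window of 11 genes, in bases from the transcription start; solid colour marks a match on the strand of the gene and pale colour the opposite strand. All ERSE matches lie upstream of the start, between bases -212 and -26, and the ERSE-II match of *Dnajb11* lies at bases 7 to 17 past it.

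Whole promoters are printed for *Hspa5*, which encodes BiP, and for *Creld2* and *Eif2ak3*, the genes with the largest and the smallest difference between Lep(ob/ob) and WT mice among those that changed and had an entry. Capitals again mark ERSE, which in *Creld2* stands on the opposite strand and in *Eif2ak3* is not matched.
*Hspa5* (chr2:34771840-34772139, plus strand): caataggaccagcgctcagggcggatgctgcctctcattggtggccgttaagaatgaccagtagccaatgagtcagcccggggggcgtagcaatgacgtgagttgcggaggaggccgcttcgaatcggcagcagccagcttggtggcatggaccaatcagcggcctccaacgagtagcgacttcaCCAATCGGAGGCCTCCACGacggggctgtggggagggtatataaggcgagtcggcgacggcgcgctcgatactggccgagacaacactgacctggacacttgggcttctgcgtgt
*Creld2* (chr15:88819396-88819695, plus strand): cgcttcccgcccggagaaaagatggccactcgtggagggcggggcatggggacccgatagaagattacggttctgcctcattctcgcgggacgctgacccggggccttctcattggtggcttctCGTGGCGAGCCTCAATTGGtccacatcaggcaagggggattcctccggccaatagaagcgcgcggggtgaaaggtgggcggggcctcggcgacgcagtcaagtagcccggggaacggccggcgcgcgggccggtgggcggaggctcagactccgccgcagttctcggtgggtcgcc
*Eif2ak3* (chr6:70844265-70844564, plus strand): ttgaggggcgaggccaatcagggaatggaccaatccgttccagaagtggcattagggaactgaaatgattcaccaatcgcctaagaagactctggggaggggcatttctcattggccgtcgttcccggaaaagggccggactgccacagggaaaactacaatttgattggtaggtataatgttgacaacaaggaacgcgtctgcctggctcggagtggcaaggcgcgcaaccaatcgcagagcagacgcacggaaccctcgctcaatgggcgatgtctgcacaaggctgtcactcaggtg

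To compare levels between genes, CPM was divided by the summed exon length of each gene. *Pdia2*, a disulfide isomerase known for its enrichment in pancreas, led the module in every group, at 10.87 ± 0.26 log2 CPM per kb in WT (SD, n = 5), 10.06 ± 0.52 in Lep(ob/ob) (SD, n = 7) and 9.68 ± 0.50 in CCKRi mice (SD, n = 4). Its lowest WT mouse, at 10.51, lay above the highest WT mouse of *P4hb*, the prototype disulfide isomerase, which ran from 7.95 to 9.49 log2 CPM per kb. *Hspa5* followed at 7.44 ± 0.85 (SD, n = 5), and its WT range of 6.42 to 8.62 overlapped that of *P4hb*. Next came *Sel1l*, the scaffold of the degradation ligase, at 7.03 ± 0.65, *Herpud1*, which recruits that ligase, at 6.78 ± 0.74, and *Hsp90b1*, the ER member of the HSP90 family, at 6.74 ± 0.72 log2 CPM per kb (SD, n = 5 each). These neighbours did not differ beyond their spread between mice. The lowest of the 44 in WT were *Erp29*, *Ern1* and *Derl2*, at 2.28, 1.78 and 1.77 log2 CPM per kb. Exon length here sums all annotated isoforms (9.06 kb for *Erp29*), so the level per length of a gene with long rare isoforms comes out low.

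**Figure D2:**
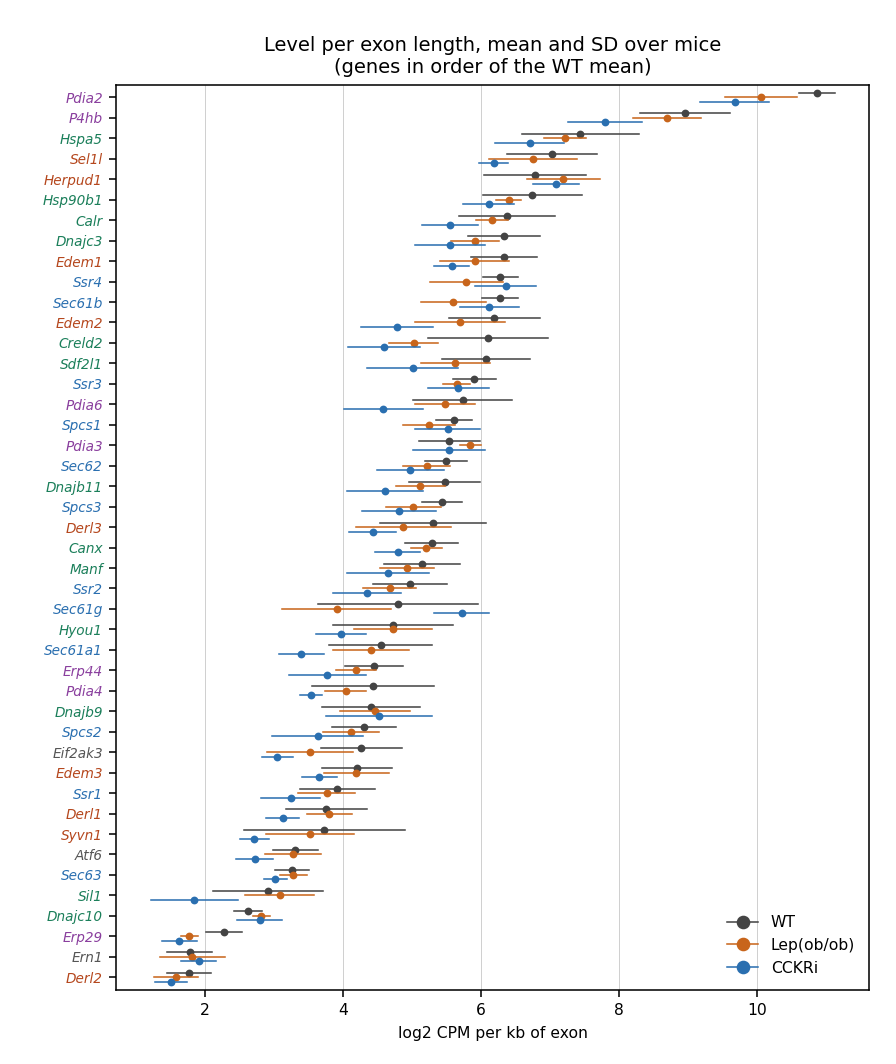
Level of the 44 genes in log2 CPM per kb of exon, with genes in order of the WT mean and coloured by role; points are group means and lines the SD over 5 WT, 7 Lep(ob/ob) and 4 CCKRi mice. *Pdia2* stands apart at the top in all 3 groups, and from *P4hb* downwards the spread of most neighbours overlaps.

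The first comparison asked how obesity from leptin deficiency moved these genes. After TMM scaling, edgeR's quasi-likelihood test was run in 1 model of the 3 groups with batch as a covariate, with Benjamini-Hochberg adjustment over the 13660 genes, and a gene was called at an adjusted p under 0.05. Each library came from its own mouse, so the p-values measure the spread between mice. *Creld2*, *Pdia2*, *Erp29* and *Eif2ak3*, 4 of the 44 genes, were lower in Lep(ob/ob) than in WT pancreas and 0 were higher. Over all genes 9.07% were called, 3.14% lower and 5.93% higher, so that 4 of 44 is close to the share of all genes called in either direction and above the share called lower. At an unadjusted p under 0.05, 7 of the 44 were lower and 0 higher (15.9%), against 23.8% of all genes in either direction. The log2 fold change was negative for 36 of the 44 genes (81.8%), with a median of -0.26, against 52.3% negative and a median of -0.02 over all genes tested. In batch A alone the median of the 44 was -0.30 (0.01 over all genes), and in batch B alone it was -0.06 (0.02 over all genes). Without WT 5489 the median of the 44 was -0.11, and the sign turned for 8 genes that had not passed the test (*Hspa5*, *Dnajb9*, *Hyou1*, *Manf*, *Sec61a1*, *Ssr1*, *Syvn1* and *Atf6*). With library totals alone in place of TMM, an alternative chosen after seeing the data, the median of all genes shifted by 0.17 to 0.15 and that of the 44 was -0.10. In whole tissue, fewer cells of a type and less RNA per cell cannot be told apart.

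**Figure D3:**
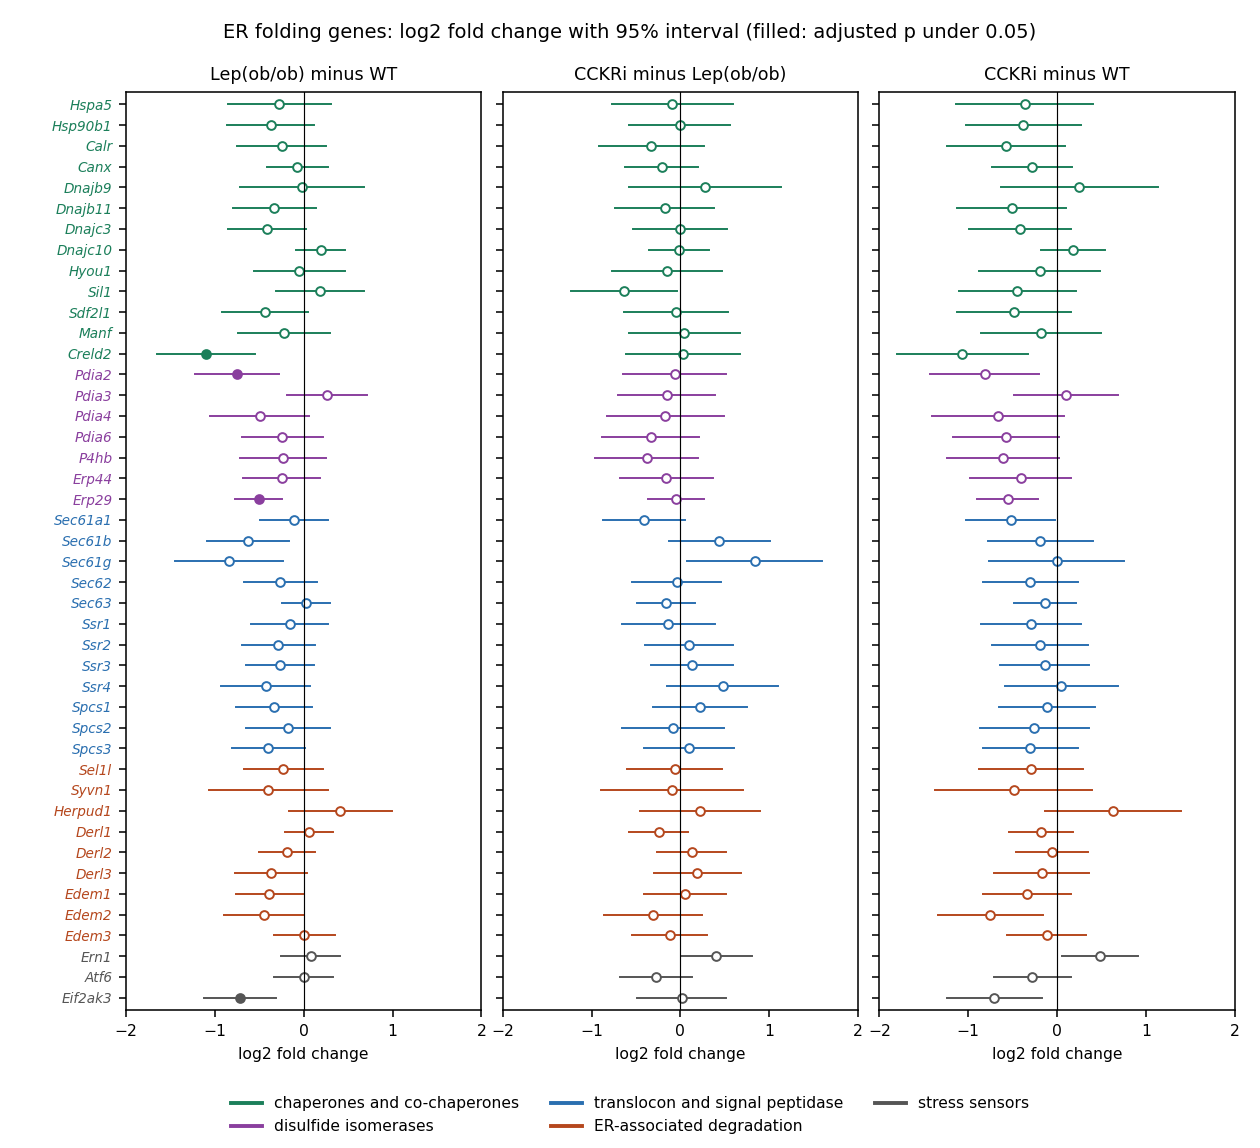
Log2 fold change of each of the 44 genes with its 95% interval, for Lep(ob/ob) minus WT (left), CCKRi minus Lep(ob/ob) (middle) and CCKRi minus WT (right), coloured by role; filled points have an adjusted p under 0.05. *Creld2*, *Pdia2*, *Erp29* and *Eif2ak3* are filled on the left, to the left of 0, and no point is filled in the other panels.

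Among the chaperones and co-chaperones, 1 of 13 was lower and 0 higher, against 3.14% and 5.93% of all genes. The median log2 fold change was -0.25 (-0.02 over all genes). The one called was *Creld2* (chr15:88819646-88826683, plus strand), an ER-resident protein known to be induced by ER stress. Its log2 CPM was 7.43, 6.45 and 7.46 in the WT mice of batch A and 5.74 and 5.67 in those of batch B. In Lep(ob/ob) mice it ran from 4.89 to 5.79 with a median of 5.54. WT and Lep(ob/ob) mice did not overlap within either batch, but across batches the highest Lep(ob/ob) mice lay above the WT mice of batch B. *Creld2* fell by 1.10 on the log2 scale (SE 0.26, 95% interval -1.65 to -0.55, adjusted p = 0.014 by edgeR), to 0.468 times the WT level. Within batch A alone the log2 fold change was -1.50 (adjusted p = 0.0034 by edgeR) and within batch B alone it was -0.40 (adjusted p = 0.53), and the test of that difference gave 1.12 (SE 0.40, adjusted p = 0.38 by edgeR).

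*Hspa5*, the BiP chaperone and the most used readout of the unfolded protein response, was at 10.70, 9.35 and 10.00 log2 CPM in the WT mice of batch A and at 9.05 and 8.50 in those of batch B. In Lep(ob/ob) mice it ran from 8.80 to 9.61 with a median of 9.45, inside the WT range. The log2 fold change was -0.27 (SE 0.27, 95% interval -0.85 to 0.31, adjusted p = 0.59 by edgeR) and without WT 5489 it was 0.01 (adjusted p = 0.98). *Hsp90b1*, which folds selected secretory and membrane proteins, was at 9.50, 8.72, 9.46, 8.15 and 7.94 in WT mice 5489, 5492, 5494, 58 and 59. In Lep(ob/ob) mice it ran from 8.24 to 8.71 with a median of 8.42. All Lep(ob/ob) mice lay below the WT mice in batch A and above them in batch B. Its log2 fold change was -0.37 (adjusted p = 0.35), with -0.78 (adjusted p = 0.018) in batch A alone and 0.34 (adjusted p = 0.59) in batch B alone, and the test of the difference between batches gave 1.15 (SE 0.33, adjusted p = 0.34 by edgeR).

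The other 10 chaperones did not pass the test, with log2 fold changes between -0.44 (*Sdf2l1*, a partner of ER J-domain proteins) and 0.19 (*Dnajc10*, a J-domain disulfide reductase). The lectin chaperones that hold glycoproteins during folding were at -0.25 (*Calr*) and -0.07 (*Canx*). The J-domain partners of BiP were at -0.41 (*Dnajc3*), -0.33 (*Dnajb11*) and -0.02 (*Dnajb9*). The nucleotide exchange factors that reset BiP were at -0.05 (*Hyou1*) and 0.19 (*Sil1*), and *Manf*, a small BiP-binding protein, was at -0.23. Without WT 5489 *Hyou1* was at 0.30 and *Dnajb9* at 0.32.

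Of the 7 disulfide isomerases, 2 were lower and 0 higher, against 3.14% and 5.93% of all genes. Their median log2 fold change was -0.25 (-0.02 over all genes). *Pdia2* (chr17:26195999-26199087, minus strand) was at 11.84, 11.72, 11.92, 11.48 and 11.29 log2 CPM in WT mice 5489, 5492, 5494, 58 and 59. In Lep(ob/ob) mice it ran from 9.81 (mouse 463) to 11.39 with a median of 10.87. The WT mice lay above the Lep(ob/ob) mice within each batch, and only across batches did they overlap. *Pdia2* fell by 0.75 on the log2 scale (SE 0.22, 95% interval -1.22 to -0.28, adjusted p = 0.044 by edgeR), to 0.594 times the WT level. Within batch A the log2 fold change was -0.63 (adjusted p = 0.018) and within batch B it was -0.86 (adjusted p = 0.37, edgeR).

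*Erp29* (chr5:121428590-121452506, minus strand), a disulfide isomerase relative that helps secretory cargo fold without the redox site of the family, was at 5.70, 5.36, 5.68, 5.50 and 5.06 log2 CPM in the same WT mice. In Lep(ob/ob) mice it ran from 4.84 to 5.13 with a median of 4.92, again below WT within each batch. *Erp29* fell by 0.51 (SE 0.12, 95% interval -0.77 to -0.25, adjusted p = 0.015 by edgeR), with -0.55 (adjusted p = 0.012) in batch A and -0.39 (adjusted p = 0.39) in batch B alone. Exons of *Naa25* and *Tmem116* on the opposite strand cover 26.4% of its exons, and whether the counting used strand is not given in the sources used here. The other isomerases did not pass the test. *Pdia4*, a multi-domain isomerase, was at -0.49 (-0.07 without WT 5489), *Erp44*, which retains cargo in the early secretory pathway, at -0.25, *Pdia6*, which limits IRE1 and PERK signalling, at -0.24, *P4hb* at -0.23, and *Pdia3*, the partner of calreticulin and calnexin, at 0.26.

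No gene of the translocon and signal peptidase was called among 12, against 9.07% of all genes. The log2 fold change was negative for 11 of them (91.7%, against 52.3% of all genes), and the median was -0.28 (-0.02 over all genes). By edgeR 2 of the 12 had an unadjusted p under 0.05 (16.7%, against 23.8% of all genes). They were the small subunits *Sec61g* and *Sec61b* of the Sec61 channel. With DESeq2 *Sec61g* was called (log2 fold change -0.83, adjusted p = 0.039), with 12.4% of all genes called by that tool. *Sec61g* was at 5.35, 5.19 and 5.25 log2 CPM in the WT mice of batch A and at 7.05 and 7.63 in those of batch B. In Lep(ob/ob) mice it ran from 4.53 to 5.40 in 6 mice and was at 6.88 in mouse 464. The groups were apart within each batch, and the WT mice of batch B, like mouse 464, lay above all mice of batch A. Its log2 fold change was -0.84 (SE 0.29, adjusted p = 0.080 by edgeR), and without mouse 464 it was -1.05 (adjusted p = 0.030). *Sec61b* was at -0.63 (SE 0.22, adjusted p = 0.085), and without mouse 464 at -0.74 (adjusted p = 0.038). Other annotated genes, 5 for *Sec61g* and 3 for *Sec61b*, share 14.8% and 17.4% of their 50-base exon stretches, so these values are uncertain where the counting split such reads.

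The channel-forming *Sec61a1* was at -0.11, and *Sec62* and *Sec63*, which help post-translational entry, were at -0.26 and 0.02. The subunits of the translocon-associated TRAP complex were at -0.16 (*Ssr1*), -0.29 (*Ssr2*), -0.27 (*Ssr3*) and -0.43 (*Ssr4*). The signal peptidase subunits were at -0.34 (*Spcs1*), -0.17 (*Spcs2*) and -0.40 (*Spcs3*). None of these passed the test.

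In ER-associated degradation 0 of 9 genes were called by edgeR and by DESeq2, against 9.07% and 12.4% of all genes. By edgeR 1 had an unadjusted p under 0.05 (11.1%, against 23.8% of all genes). That gene, *Edem1*, whose product hands misfolded glycoproteins to degradation, had a log2 fold change of -0.39 (SE 0.18, adjusted p = 0.19 by edgeR). *Herpud1* went the other way. It was at 9.19, 8.15, 7.83, 7.52 and 7.30 log2 CPM in WT mice 5489, 5492, 5494, 58 and 59, and in Lep(ob/ob) mice it ran from 7.41 to 8.92 with a median of 8.52. The groups overlapped widely and the difference did not pass the test (log2 fold change 0.41, SE 0.28, 95% interval -0.17 to 0.99, adjusted p = 0.39 by edgeR), nor without WT 5489 (0.74, adjusted p = 0.084). *Syvn1*, the ubiquitin ligase of the pathway, was at 7.98 in WT 5489 and at 4.98 to 5.83 in the other WT mice, and from 4.73 to 6.47 in Lep(ob/ob) mice, with a log2 fold change of -0.40 (adjusted p = 0.48), which turned to 0.24 (adjusted p = 0.47) without WT 5489. Its scaffold *Sel1l* was at -0.23. The derlins, which form the exit channel, were at 0.06 (*Derl1*), -0.19 (*Derl2*) and -0.37 (*Derl3*), and the mannosidase-like *Edem2* and *Edem3* were at -0.45 and 0.01.

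Of the 3 stress sensors 1 was lower and 0 higher, against 3.14% and 5.93% of all genes. *Eif2ak3* (chr6:70844515-70905245, plus strand) encodes PERK, which slows translation when the ER is overloaded and whose loss is known to damage both endocrine and exocrine pancreas. It was at 7.71, 6.95, 6.94, 6.62 and 6.08 log2 CPM in WT mice 5489, 5492, 5494, 58 and 59, and from 5.06 (mouse 463) to 6.85 with a median of 6.14 in Lep(ob/ob) mice. Within each batch the WT mice lay above the Lep(ob/ob) mice. *Eif2ak3* fell by 0.72 (SE 0.19, 95% interval -1.13 to -0.31, adjusted p = 0.027 by edgeR), to 0.607 times the WT level, with -0.64 (adjusted p = 0.099) in batch A and -0.77 (adjusted p = 0.27) in batch B alone. An opposite-strand gene, *Gm43292*, covers 8.05% of its exons. The other sensors did not pass the test. *Ern1*, which encodes IRE1, was at 0.08 (95% interval -0.25 to 0.41), and the 95% interval of *Atf6* ran from -0.33 to 0.33.

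Leaving out each mouse in turn, *Creld2* kept its call in every fit, with log2 fold changes from -1.25 to -0.94, and *Erp29* lost it only without WT 58 (-0.47, adjusted p = 0.056 by edgeR). With library totals alone *Erp29* also lost its call (-0.33, adjusted p = 0.23), and *Creld2*, *Pdia2* and *Eif2ak3* kept theirs. *Eif2ak3* lost its call without WT 5489 (-0.57, adjusted p = 0.098), WT 58 (-0.63, adjusted p = 0.097), Lep(ob/ob) 441 or Lep(ob/ob) 417. *Pdia2* ran from -0.81 to -0.64 and kept its call only without Lep(ob/ob) 447, Lep(ob/ob) 464, CCKRi 69 or CCKRi 76. Without WT 5489 it was at -0.76 (adjusted p = 0.084).

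**Figure D4:**
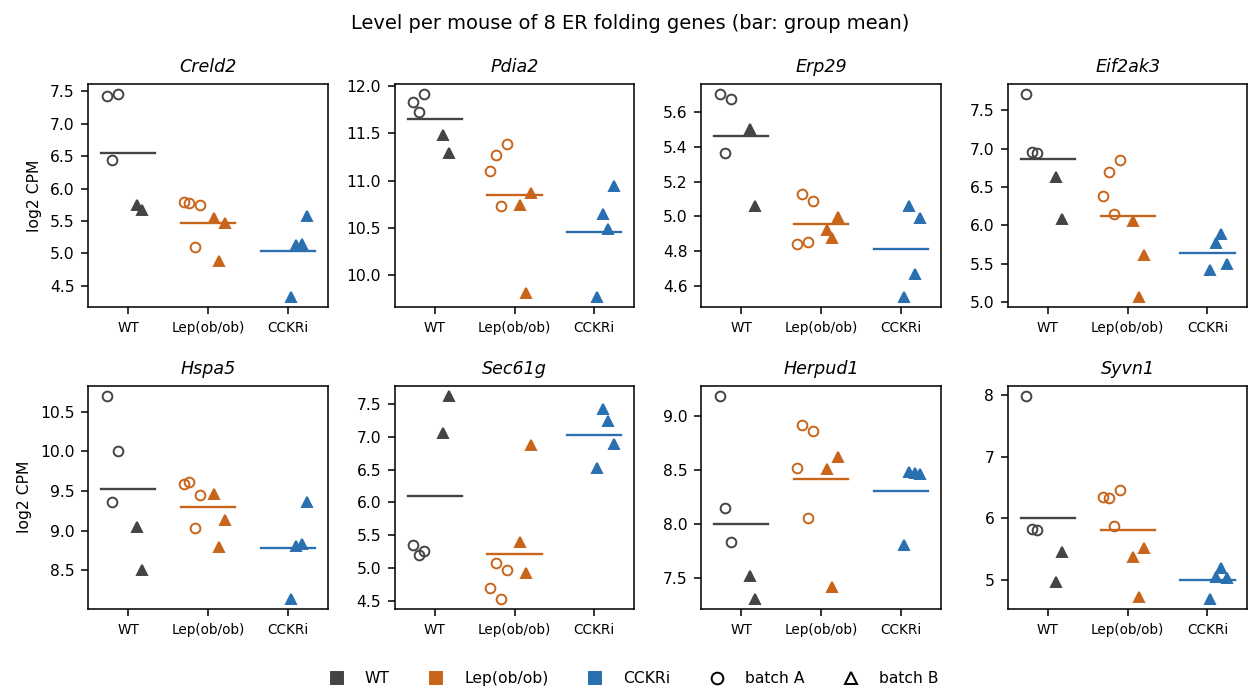
Log2 CPM of 8 genes in each mouse by group, with open circles for batch A, filled triangles for batch B and a bar at the group mean. *Creld2*, *Pdia2*, *Erp29* and *Eif2ak3* are lower in Lep(ob/ob) than in WT mice within each batch, while in *Hspa5*, *Herpud1* and *Syvn1* WT mouse 5489 stands at the top and the groups overlap, and in *Sec61g* the WT and CCKRi mice of batch B and 1 Lep(ob/ob) mouse stand above the rest.

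Across all mice 0 of the 44 genes were free of overlap between Lep(ob/ob) and WT, against 4.04% of all genes. In batch A 16 were lower without overlap and 1, *Dnajc10*, was higher, against 10.3% and 10.7% of all genes (21% in either direction). In batch B 9 were lower and 1, *Hsp90b1*, was higher, against 15.7% and 17.2% (33% in either direction). *Creld2*, *Pdia2*, *Erp29*, *Sec61b*, *Sec61g* and *Eif2ak3* were the genes that were lower without overlap in both batches. The share of all genes that were so in both batches was not counted, so no weight is put on this overlap of lists. By edgeR's interaction test of the genotype difference between batches 0 of the 44 genes were called (3 at an unadjusted p under 0.05, lowest adjusted p = 0.335), against 0% called and 11.9% at an unadjusted p under 0.05 over all genes. DESeq2 also called 0 of the 44 (5 at an unadjusted p under 0.05, lowest adjusted p = 0.054), against 0.426% of the genes it gave an adjusted p. The 3 by edgeR were *Hsp90b1*, *Calr* and *Creld2*, each with a more negative difference in batch A. Without Lep(ob/ob) 464, when 9.79% of all genes were called, *Hsp90b1* was called in that direction (adjusted p = 0.044 by edgeR) and *Sec61b* (-1.10), *Sec61g* (-1.86), *Ssr4* (-1.23) and *Spcs1* (-1.09) in the other, with a more negative difference in batch B.

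More of the 44 genes differed by batch than by genotype. In the same model 19 of the 44 genes were lower in batch B than in batch A and 1 was higher, against 17.7% lower and 18.1% higher over all genes, and the median was -0.56 against 0.06. This direction depends on the scaling. With library totals alone 17 of the 44 were higher in batch B and 0 lower, while 72.9% of all genes were higher and the median was 0.30 against 0.94 over all genes. Relative to the median of all genes the 44 lay at -0.61 with TMM and at -0.65 with library totals. The values that follow are TMM-scaled. The genes of ER-associated degradation stood at a median of -0.75, with 7 of 9 lower, and genes called lower came from all 5 roles, among them *Hyou1* (-1.07), *P4hb* (-0.83), *Sec61a1* (-1.04), *Syvn1* (-1.29) and *Eif2ak3* (-0.90). *Sec61g* was higher in batch B by 1.56 (SE 0.29, adjusted p = 0.00092 by edgeR). The mean log2 CPM of the 13 acinar markers was 12.93 to 13.11 in WT mice of batch A and 11.45 to 12.10 in those of batch B, 12.09 to 12.85 and 10.92 to 12.10 in Lep(ob/ob) mice of batches A and B, and 10.50 to 11.71 in CCKRi mice. The mean over the 13 chaperones was 7.04 to 7.88 and 6.41 to 6.79 in WT mice of batches A and B, 6.67 to 7.18 and 6.41 to 6.91 in Lep(ob/ob) mice, and 5.80 to 6.99 in CCKRi mice, so that both ranges lay lower in batch B, with some overlap between batches in Lep(ob/ob) mice for each mean.

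Models that also hold a marker score were a later choice, made with the data in view. With the acinar marker mean in the model, *Creld2* (-0.79, adjusted p = 0.018), *Pdia2* (-0.51, adjusted p = 0.019) and *Erp29* (-0.39, adjusted p = 0.036) remained called by edgeR. *Eif2ak3* did not (-0.53, adjusted p = 0.051 by edgeR), and 9.16% of all genes were called. The median of the 44 genes was -0.03, against -0.03 over all genes. With the islet marker mean in its place 17 genes were called, all lower, while 27.4% of all genes were called. The median was then -0.68, against -0.01 over all genes. The part of cell composition in these differences was not tested beyond these fits.

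**Figure D5:**
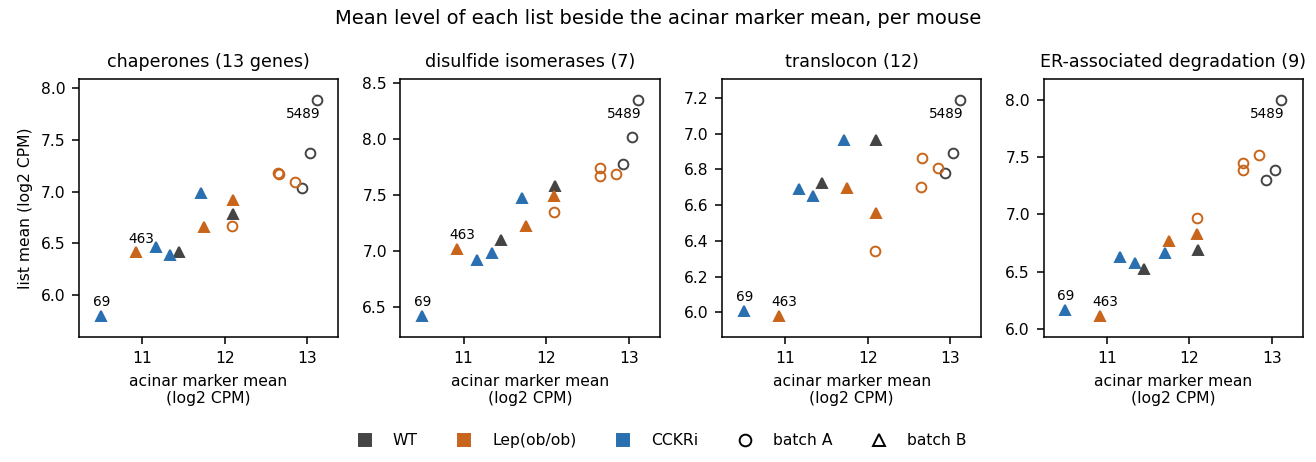
Mean log2 CPM of the genes of 4 roles against the mean of 13 acinar markers, 1 point per mouse, coloured by group, with open circles for batch A and filled triangles for batch B. WT 5489 is the highest point and CCKRi 69 the lowest or next to lowest in each panel, and outside the translocon panel most batch B mice lie to the lower left of the batch A mice.

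The second comparison asked whether blocking CCK receptors moved these genes in obese mice. By edgeR 0 of the 44 were called and 3 had an unadjusted p under 0.05, against 0.0586% called and 14.3% at an unadjusted p under 0.05 over all genes. DESeq2 also called 0 of the 44, against 0.945% of the genes it gave an adjusted p. The median log2 fold change of the 44 was -0.06 against -0.01 over all genes. No gene was free of overlap between CCKRi and Lep(ob/ob) mice, in all mice or within batch B, against 5.81% and 8.49% of all genes. The 4 genes that were lower in Lep(ob/ob) mice were at 0.03 (*Creld2*, 95% interval -0.62 to 0.68), -0.06 (*Pdia2*, -0.64 to 0.52), -0.05 (*Erp29*, -0.36 to 0.27) and 0.01 (*Eif2ak3*, -0.49 to 0.51). These genes were chosen for their difference between Lep(ob/ob) and WT mice, and the intervals leave room for changes in either direction. *Hspa5* was at 8.14 and 8.80 log2 CPM in the proglumide mice 69 and 72 and at 8.83 and 9.36 in the lorglumide mice 74 and 76. Its log2 fold change was -0.09 (SE 0.32, 95% interval -0.77 to 0.59, adjusted p = 0.91).

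The 3 genes at an unadjusted p under 0.05 were *Sec61g*, *Ern1* and *Sil1*. *Sec61g* was at 6.53 and 7.42 in the proglumide mice and 7.24 and 6.90 in the lorglumide mice, against 5.40, 4.93 and 6.88 in the Lep(ob/ob) mice of the same batch. Its log2 fold change was 0.83 (SE 0.36, 95% interval 0.08 to 1.59, adjusted p = 0.32 by edgeR), and WT mice of batch B stood as high, at 7.05 and 7.63. *Ern1* was at 4.92, 5.09, 5.18 and 4.60 in CCKRi mice 69, 72, 74 and 76 and at 4.56, 4.05 and 4.91 in Lep(ob/ob) mice 461, 463 and 464 (log2 fold change 0.41, SE 0.19, adjusted p = 0.35). *Sil1* ran from 2.97 to 4.47 in the same CCKRi mice and from 4.05 to 4.97 in the same Lep(ob/ob) mice (log2 fold change -0.63, SE 0.28, adjusted p = 0.33).

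By role, the log2 fold change of CCKRi against Lep(ob/ob) mice was negative for 10 of 13 chaperones (median -0.05), for 7 of 7 disulfide isomerases (median -0.16), for 5 of 12 translocon and signal peptidase genes (median 0.10) and for 5 of 9 genes of ER-associated degradation (median -0.07), with 51.2% negative over all genes. CCKRi 69 lay below the other CCKRi mice in most of them, and without it the median over the 44 genes was 0.10 and the sign turned for 16 of them, none of which had passed the test. The median also turned positive without Lep(ob/ob) 461 (0.05), without Lep(ob/ob) 417, 461, 463 and CCKRi 69, the 4 mice highest in adipocyte markers (0.08), and with the acinar marker score in the model (0.18), and with library totals alone it was 0.26 against 0.31 over all genes. It was -0.13 without Lep(ob/ob) 463, -0.20 without CCKRi 76 and -0.40 with no batch covariate, so neither its sign nor its size was stable. With the proglumide mice alone as the treated group the median was -0.32 and with the lorglumide mice alone it was 0.18, and each fit called 0 genes. The drugs were given at different doses to a pair of mice each, so these values stand side by side without a comparison.

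The third comparison set CCKRi against WT mice, so that genotype, treatment and, for the WT mice of batch A, batch all differed. By edgeR 0 of the 44 were called and 7 had an unadjusted p under 0.05, while over all genes 5.57% were called, 1.35% lower and 4.22% higher, and 16.7% had an unadjusted p under 0.05. DESeq2 called 3 of the 44, *Creld2*, *Pdia2* and *Erp29*, all lower, against 7.79% of all genes in either direction and 2.7% lower. The median of the 44 was -0.29, against -0.02 over all genes. It stayed negative when any 1 mouse was left out, at -0.15 without CCKRi 69, -0.20 without WT 5489, -0.42 without WT 59 and -0.46 without CCKRi 76, and was -0.09 without the 4 mice highest in adipocyte markers. With the proglumide mice alone it was -0.57 and with the lorglumide mice alone -0.06. It was -0.68 with no batch covariate, -0.74 with the islet marker score in the model and 0.13 with the acinar marker score. With library totals alone it was 0.18 against 0.47 over all genes, and *Herpud1* and *Ern1* were called higher, as were 7.11% of all genes. This comparison shares its CCKRi mice with the second and its WT mice with the first, so the values below are not independent of those above. *Creld2* was at 4.32, 5.13, 5.14 and 5.58 log2 CPM in CCKRi mice 69, 72, 74 and 76, below all WT mice, with a log2 fold change of -1.07 (SE 0.35, adjusted p = 0.092 by edgeR). *Pdia2*, at 9.76, 10.64, 10.49 and 10.94, gave -0.81 (SE 0.29, adjusted p = 0.13). *Erp29*, at 4.53, 5.06, 4.67 and 4.99, gave -0.56 (SE 0.16, adjusted p = 0.054). *Eif2ak3*, at 5.42, 5.77, 5.89 and 5.49, gave -0.71 (SE 0.25, adjusted p = 0.13). These were the 4 genes of the 44 that lay below WT without overlap, against 5.22% of all genes. Within batch B the same 4 lay below the WT mice (the nearest *Erp29* mice were both at 5.06), and *Herpud1* lay above them, against 10% lower and 11.6% higher of all genes. *Herpud1* was at 7.81, 8.48, 8.48 and 8.46 in CCKRi mice (log2 fold change 0.63, SE 0.36, adjusted p = 0.42 by edgeR).

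The genes with a promoter match were compared with the rest for description. The 9 genes with ERSE had a median log2 fold change of -0.37 between Lep(ob/ob) and WT mice, from -1.10 to -0.07, and 1 of them, *Creld2*, was called. The 24 genes whose promoter held neither ERSE nor ERSE-II had a median of -0.26, from -0.84 to 0.26, and 2 of them were called. Between CCKRi and Lep(ob/ob) mice the medians were -0.09 and -0.04.

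Genes of neighbouring pathways were taken from lists chosen with earlier results of these data known. Their counts between Lep(ob/ob) and WT mice stand beside 9.07% of all genes called and 23.8% at an unadjusted p under 0.05. Of 15 transcription factors of the unfolded protein response and targets of its PERK arm, 0 were called between Lep(ob/ob) and WT mice by edgeR, 5 had an unadjusted p under 0.05 (33.3%), and the log2 fold changes ran from -0.80 to 0.66 with a median of 0.07. The 5, named here after their values were seen, were *Creb3l2* at 0.43 (adjusted p = 0.063), *Cebpb* at 0.63 (adjusted p = 0.16), *Sesn2* at 0.66 (adjusted p = 0.072), *Nupr1* at -0.80 (adjusted p = 0.074) and *Atf6b* at -0.36 (adjusted p = 0.15). The best known genes of the list, also outside the rule for naming genes, were at 0.15 (*Xbp1*, adjusted p = 0.67), -0.12 (*Atf4*, adjusted p = 0.78) and -0.03 (*Ddit3*, adjusted p = 0.96). Of 14 oxidoreductases and lectin-cycle enzymes 1 was lower, *Txndc11* (-0.52, SE 0.15, adjusted p = 0.042), a partner of the degradation machinery. Of 12 oligosaccharyltransferase genes, which attach sugar chains to nascent proteins, the small subunit *Ost4* was lower (-0.50, SE 0.12, adjusted p = 0.012) and the oxidoreductase subunit *Tusc3* was higher (0.65, SE 0.19, adjusted p = 0.044). Of 8 genes of the signal recognition particle and its receptor, which bring ribosomes to the translocon, *Srp19* was lower (-0.79, SE 0.23, adjusted p = 0.039). Of 22 genes of COPII vesicles and cargo receptors, which carry folded protein to the Golgi, 0 were called (4 at an unadjusted p under 0.05), and of 9 cytosolic heat shock genes 0 were called (2 at an unadjusted p under 0.05). In the second comparison 0 genes of these lists were called by edgeR, against 0.0586% of all genes. In the third, *Txndc11* (-0.77, adjusted p = 0.030) and the transcription factor *Creb3l1* (-0.79, adjusted p = 0.030) were lower by edgeR. *Sec16b*, a scaffold of ER exit sites, was higher (0.98, adjusted p = 0.019 by edgeR). Over all genes 1.35% were lower and 4.22% higher in that comparison.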

How the data were processed

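The authors deposited raw counts per gene for 16 mice, 24411 rows by gene symbol, which were used as deposited. The submitters' processing notes name Trim Galore 0.6.7, cutadapt 3.5, STAR 2.7.9 and DESeq2 (version not given) with build mm10, while the counting program, its strand setting and the annotation are not given in the sources used here. Libraries were made from polyadenylated RNA with a kit that marks strand. A second deposited table, in which each mouse's counts are scaled by its own size factor, was not used. There were 2 duplicated symbols, 0 rows naming no gene and 0 columns of other samples.

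The analysis used edgeR 4.0.16 in R 4.3.3 (filterByExpr, TMM, quasi-likelihood test, limma 3.58.1 underneath) in 1 model of 3 groups and batch, over 13660 genes with Benjamini-Hochberg adjustment and a threshold of 0.05. CPM and log2 CPM values are TMM-scaled, the latter with a prior count of 2. The code was tested on simulated data. Depth was 9.87 to 34.5 M counts per mouse.

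The 44 members and all lists were chosen with earlier results of these data known. All members were named, and from every other list up to 3 genes per comparison with the lowest adjusted p under 0.05. Alternatives were DESeq2 1.42.0, size factors by RLE, scaling without the 50 most abundant genes, a minimum of 10 counts per mouse or no minimum, no batch term, only the compared groups, each batch or drug alone, a fold threshold of 1.5, and leaving out mice. Fits with a marker score as a covariate, and scaling by library totals alone, were chosen after seeing the data. Promoters came from RefSeq (GRCm38.p6), and gene positions and exon lengths from the mouse GENCODE annotation of GRCm38.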

Additional observations from a re-analysis of the deposited data

Results flagged for a closer look

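Across the 44 genes and 3 groups, 7 of 132 sets of values held a mouse whose gap to its nearest neighbour, divided by the range of the group, was above Dixon's 95% critical value, where chance gives about 1 in 20, here 6.6. The WT and Lep(ob/ob) sets pool both batches, and neither the critical value nor the 6.6 takes batch into account. The 7 came from 4 mice. WT 5489 was the highest WT mouse for *Syvn1* (ratio 0.716, 7.98 against 5.83 log2 CPM in the next mouse) and for *Derl2* (ratio 0.715, 5.32 against 4.74). Lep(ob/ob) 463 was the lowest of its group for *Pdia2* (ratio 0.58, 9.81 against 10.73) and *Spcs3* (ratio 0.582, 6.03 against 6.73). Lep(ob/ob) 464 was the highest for *Sec61g* (ratio 0.63, 6.88 against 5.40). CCKRi 69 was the lowest of its group for *Herpud1* (ratio 0.971, 7.81 against 8.46) and *Edem1* (ratio 0.904, 7.89 against 8.37).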

How the results depend on the processing

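Counts of the 44 are given with the share of all genes called in the same fit, except where it is said that the share was not counted. For the genotype comparison 4 genes were called (9.07%). The count was 2 with no batch covariate (5.84%), 0 in batch B alone (0.057%, edgeR), and 17 with the islet marker score as a covariate (27.4%). That score was chosen after seeing the data, and the cause was not tested. In batch B alone 3 of the 44 had an unadjusted p under 0.05 by edgeR, with that share of all genes not counted. Leaving out each mouse in turn gave 1 to 6 (6.14% to 10.5%), with 1 without WT 58, 2 without WT 5489, Lep(ob/ob) 441 or Lep(ob/ob) 417, and 6 without Lep(ob/ob) 464. With DESeq2, RLE normalization, the 50 most counted genes left out, other filters on low counts, only the compared groups, batch A alone, the acinar marker score or library totals alone it was 3 to 5 (5.75% to 12.4%). With a fold threshold of 1.5 it was 3, and the share of all genes past that threshold was not counted. Between CCKRi and Lep(ob/ob) mice every alternative run gave 0 (0% to 4.17%), and leaving out each mouse gave 0 to 0. Between CCKRi and WT mice the count of 0 (5.57%) became 9 with no batch covariate (10.5%), 3 with DESeq2 (7.79%), 1 with RLE normalization (5.61%), 1 with the 50 most counted genes left out (5.57%), 1 without Lep(ob/ob) 417, 461, 463 and CCKRi 69 (the mice highest in adipocyte markers, 9.64%), 1 with the acinar marker score (*Herpud1*, higher, 6.79%), 9 with the islet marker score (9.94%) and 2 (*Herpud1* and *Ern1*, higher, 7.39%) with library totals alone. Leaving out each mouse gave 0 to 2 (3.7% to 7.17%), with 2 (*Pdia2* and *Eif2ak3*) without Lep(ob/ob) 463 and 1 (*Erp29*) without WT 59 or CCKRi 72. The difference between batches gave 0 to 5 called genes when leaving out each mouse, with 5 (1 higher and 4 lower in batch B minus batch A) without Lep(ob/ob) 464, when 9.79% of all genes were called. *Creld2*, *Pdia2*, *Erp29* and *Eif2ak3*, the genes called for genotype, were lower under every alternative run. Genes called for genotype under an alternative alone could change sign, as *Hsp90b1* did (-0.78 in batch A alone and 0.34 in batch B alone). No paired analysis was possible because the groups share no mouse numbers. With 2 WT mice in batch B and all CCKRi mice in that batch, comparisons within a batch rest on few mice.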
